A study of Mus musculus with 12 samples.

Results

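The Ly6 genes examined were Ly6a, which encodes the stem cell antigen Sca-1, and its relatives Ly6c1, Ly6c2, Ly6e and Ly6i. These 5 genes were chosen by name from the deposited tables of RNA counts, which list 29736 genes for LSK cells and 31042 for GMP cells, with 24982 genes in both. All 5 are listed in both tables. RNA was amplified by Smart-Seq2, which copies full-length cDNA from very little RNA, from bone marrow of C57BL/6 mice that carried melanoma according to the series title. Mice received diABZI, a small-molecule agonist of the DNA-sensing adaptor STING, or served as controls, and each of the 4 groups (LSK control, LSK STING agonist, GMP control, GMP STING agonist) has 3 libraries. The labels give no dose, time, age or cell number per library, and do not state whether libraries came from different mice. The p-values therefore measure only the spread between libraries, which may be technical.

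Ly6 proteins are small surface molecules with a compact disulfide-bonded fold, and most are held in the membrane by a glycosylphosphatidylinositol (GPI) anchor. Sca-1 is one of the antigens used to sort the LSK fraction (lineage-negative, Sca-1+, Kit+), which holds mouse stem and multipotent progenitor cells, whereas granulocyte-monocyte progenitors (GMP) are customarily sorted as Sca-1-. Interferons are known to raise Sca-1 on mouse progenitors. The Ly6C antigen, encoded by Ly6c1 and Ly6c2, marks monocytes and their precursors, and Ly6e is an interferon-inducible gene whose product limits infection by coronaviruses.

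Library totals ran from 30649314 to 47225983 counts, and levels are given as counts per 1e6 library counts (CPM). The LSK label did not go with the RNA level of the gene for its own sorting antigen. Sca-1 protein on the cells is not measured by these counts. Ly6a stood at 0.827, 0.402 and 0.598 CPM in the LSK controls, against 283, 345 and 194 CPM of Kit, the other positive marker of that gate. A list of 12 erythroid and megakaryocyte progenitor genes summed to between 9507 and 15074 CPM in the LSK-labelled libraries and to between 223 and 340 CPM in GMP. The groups are therefore called LSK-labelled. GMP libraries carried 19487 to 25672 CPM of Mpo, the myeloperoxidase gene of granulocyte precursors. A pair of libraries stood apart in 11 mature neutrophil genes, which summed to 431 CPM in GMP control 3 and 386 CPM in LSK STING agonist 3, against 6.12 to 52.0 CPM in the others. In bulk libraries such as these, fewer cells of a type and less RNA per cell cannot be told apart.

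Some marker lists had sums that did not overlap between treated and control libraries, and their ranges follow. The sums overlapped for GMP, mature neutrophil, and T and NK lymphocyte genes in both cell types. They also overlapped in LSK-labelled cells for erythroid and megakaryocyte, monocyte and macrophage, and B lymphocyte genes, and in GMP for endothelial and stromal genes. In LSK-labelled cells, the LSK markers other than Ly6a summed to 468 to 837 CPM in controls and 195 to 381 CPM after the agonist, and endothelial and stromal genes to 227 to 326 and 113 to 207 CPM. In GMP, the ranges in controls and treated libraries were 1215 to 2569 and 963 to 1014 CPM for monocyte and macrophage genes, and 184 to 211 and 130 to 133 CPM for B lymphocyte genes. They were 291 to 340 and 223 to 265 CPM for erythroid and megakaryocyte genes and 788 to 1008 and 711 to 781 CPM for the LSK markers. The plasmacytoid dendritic cell list summed to 192 to 225 CPM in LSK-labelled controls and 420 to 518 CPM after the agonist, and to 199 to 309 and 548 to 582 CPM in GMP. That list includes the interferon-stimulated gene Bst2, at 352 CPM or more in treated libraries, while its defining marker Siglech was at or below 1.39 CPM in all 12. The part of these differences in the Ly6 changes was not tested.

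The 5 genes lie together on chromosome 15 (GRCm38). Ly6e is at 74955051 to 74959905 on the plus strand. The others are on the minus strand, with Ly6i at 74979534 to 74983430, Ly6a at 74994877 to 74998031, Ly6c1 at 75044018 to 75048830 and Ly6c2 at 75108158 to 75111970. No other annotated gene overlaps any of them. Close copies can share reads, and the coding sequences are shown because they set how far counts can be assigned. The coding sequences of Ly6c1 and Ly6c2, each 393 bases long, differ at 9 bases. Their first 300 coding bases hold 7 of these, in capitals.
Ly6c1: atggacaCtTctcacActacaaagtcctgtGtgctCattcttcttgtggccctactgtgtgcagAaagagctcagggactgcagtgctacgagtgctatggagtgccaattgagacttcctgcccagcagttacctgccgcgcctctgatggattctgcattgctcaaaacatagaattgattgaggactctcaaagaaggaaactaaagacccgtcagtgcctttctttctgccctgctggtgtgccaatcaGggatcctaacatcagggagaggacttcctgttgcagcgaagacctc
Ly6c2: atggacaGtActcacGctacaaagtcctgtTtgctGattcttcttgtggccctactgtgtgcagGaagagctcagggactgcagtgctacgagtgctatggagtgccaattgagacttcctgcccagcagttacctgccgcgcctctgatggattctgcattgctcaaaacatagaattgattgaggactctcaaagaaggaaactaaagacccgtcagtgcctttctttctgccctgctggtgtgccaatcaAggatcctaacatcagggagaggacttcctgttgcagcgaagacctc
The pair was 97.7% identical. Ly6a and Ly6i, with 402 coding bases each, were 86.3% identical and differ at 55 bases. Coding bases 103 to 402 hold 49 of these, again in capitals.
Ly6a: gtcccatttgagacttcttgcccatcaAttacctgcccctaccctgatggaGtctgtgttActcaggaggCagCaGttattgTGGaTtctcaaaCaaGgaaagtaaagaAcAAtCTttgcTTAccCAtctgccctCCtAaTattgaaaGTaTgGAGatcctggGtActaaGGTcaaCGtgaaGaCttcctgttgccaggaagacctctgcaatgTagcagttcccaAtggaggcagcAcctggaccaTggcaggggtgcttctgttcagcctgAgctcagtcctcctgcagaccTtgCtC
Ly6i: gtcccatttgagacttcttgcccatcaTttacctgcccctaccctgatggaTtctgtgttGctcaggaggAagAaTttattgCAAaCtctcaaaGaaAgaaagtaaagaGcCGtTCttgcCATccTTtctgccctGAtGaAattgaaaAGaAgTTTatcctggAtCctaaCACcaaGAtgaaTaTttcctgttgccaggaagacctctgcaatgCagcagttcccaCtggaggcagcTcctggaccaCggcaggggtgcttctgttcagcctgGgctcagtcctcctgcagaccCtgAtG
Ly6e shared 49.7 to 52.3% of aligned coding bases with the other 4 genes. Of all stretches of 50 bases in the annotated transcripts, 21.5% of those of Ly6c1 also occur in Ly6c2, 11.1% of those of Ly6c1 occur in Ly6a, and 19.0% of those of Ly6a occur in at least 1 other gene, mostly Ly6c1. No stretch of that length in Ly6e occurs in another gene. The labels state neither read length nor the treatment of ambiguous reads, and the values of Ly6c1, Ly6c2, Ly6a and Ly6i are uncertain to that extent.

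Ly6a, the Sca-1 gene, rose in GMP from almost no reads. Its product is customarily used to gate both LSK and GMP cells. The part of that gating in the Ly6a differences, within and between the cell types, was not tested. The GMP controls held 0, 1 and 19 counts of Ly6a, or 0, 0.0312 and 0.562 CPM. The GMP libraries of agonist-treated mice held 535, 718 and 1004 counts, or 17.5, 19.9 and 25.9 CPM. Every treated library lay far above every control. The log2 difference was 6.75 ± 1.02 (SE, n = 3 per group; adjusted p = 0.0244, edgeR quasi-likelihood test with Benjamini-Hochberg adjustment over all genes tested). Ly6a passed the filter on low counts in GMP through its treated libraries alone, so its entry into this test was not independent of the rise. The ratio of summed counts, scaled by library totals, was 108, with a 95% exact interval of 69.7 to 177 that covers counting error only. Of the 20 control counts, 19 came from GMP control 3, the library with the high neutrophil genes. Without it, treated libraries held 2257 counts against 1 in the controls, and the log2 difference was 10.25 (edgeR adjusted p = 0.000926). Since that library held nearly all control counts, leaving it out could only raise the difference, and its part in the control level was not tested. Without treated library 1, 2 or 3 the log2 difference was 6.90, 6.80 or 6.59, but the edgeR adjusted p was 0.119, 0.141 or 0.218, and limma-voom gave an adjusted p of 0.102 with all libraries.

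In the LSK-labelled libraries Ly6a had 27, 19 and 20 counts in controls and 187, 197 and 355 counts after the agonist. As CPM these are 0.827, 0.402 and 0.598 against 5.31, 5.77 and 9.07, with no overlap, and the ratio of group means was 11.0. The log2 difference was 3.60 ± 0.81 (SE, n = 3 per group), which did not pass the edgeR quasi-likelihood test (adjusted p = 0.202), whereas DESeq2 called it (adjusted p = 5.42e-10). The highest value came from LSK STING agonist 3, the other library with high neutrophil genes, and without it the log2 difference was 3.38 (edgeR adjusted p = 0.210).

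**Figure D1:**
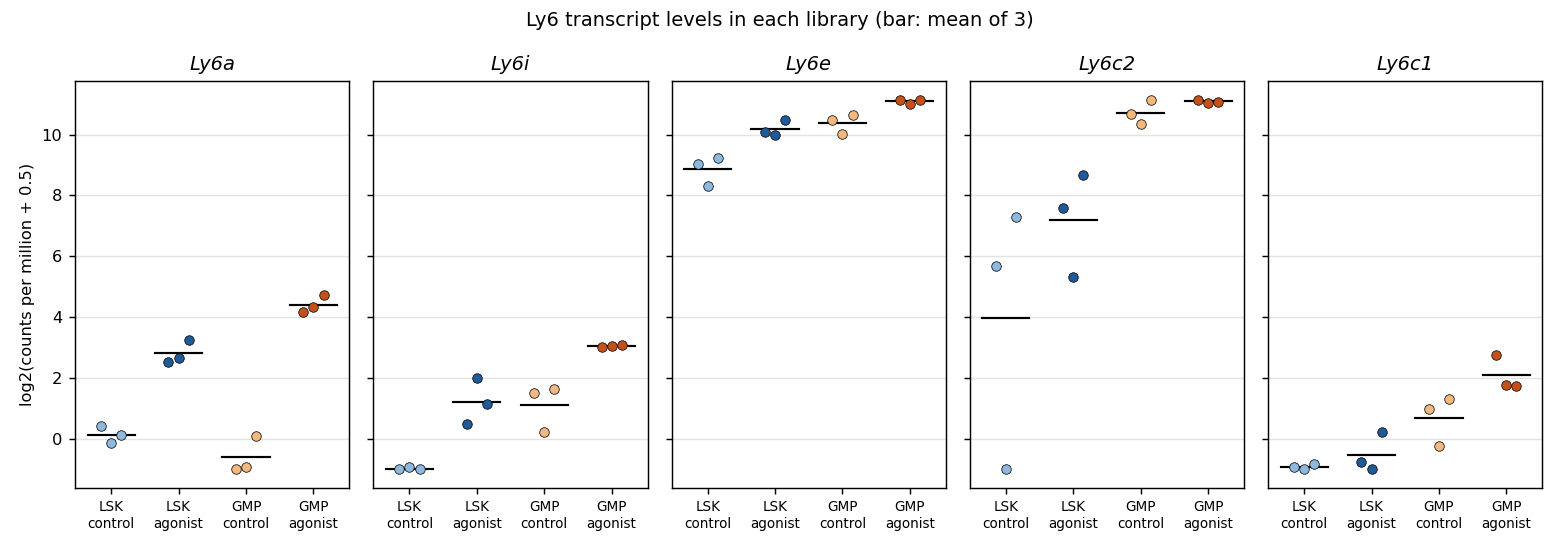
Levels of the 5 Ly6 genes in each of the 12 libraries, as log2(CPM + 0.5), with 1 point per library and a bar at the mean of 3 libraries per group. Ly6a in GMP went from at most 0.562 CPM in controls to at least 17.5 CPM after the agonist, and Ly6c2 in the LSK-labelled libraries was scattered between 0 and 408 CPM.

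Ly6i, a close relative of Ly6a, was nearly absent from the LSK-labelled controls, with 0, 1 and 0 counts. After the agonist these libraries held 32, 121 and 66 counts, or 0.908, 3.54 and 1.69 CPM. Each treated library was above each control. The ratio of summed counts, scaled by library totals, was 229, with a 95% exact interval for counting error of 40.6 to 9071 because it rests on 1 control count. In the separate fit, which Ly6i entered through its treated libraries alone, the log2 difference of 7.62 ± 1.73 did not pass (edgeR adjusted p = 0.205). The difference passed when all 12 libraries shared 1 estimate of the spread (edgeR adjusted p = 0.0102). GMP controls already held 81, 21 and 89 counts of Ly6i, or 2.31, 0.656 and 2.63 CPM. Treated GMP libraries lay within a narrow band at 7.57, 7.86 and 8.05 CPM, above all controls. That difference of 2.11 ± 0.59 on the log2 scale did not pass the edgeR test (adjusted p = 0.252) and was called by DESeq2 (adjusted p = 0.0150).

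Ly6e was abundant in all 12 libraries. In LSK-labelled controls it stood at 527, 319 and 605 CPM and after the agonist at 1091, 1013 and 1423 CPM, with no overlap between groups. The ratio of means was 2.43 and the log2 difference 1.42 ± 0.26 (edgeR adjusted p = 0.0998). The same difference passed in the fit of all 12 libraries (edgeR adjusted p = 0.0161) and with limma-voom (adjusted p = 0.0283). In GMP, Ly6e stood at 1425, 1048 and 1599 CPM in controls and at 2273, 2073 and 2250 CPM after the agonist. These groups did not overlap either, and the ratio of means was 1.62. The log2 difference of 0.75 ± 0.19 did not pass the edgeR test (adjusted p = 0.198), and DESeq2 called it (adjusted p = 0.0351).

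Ly6c2 carried nearly all of the Ly6C counts. It held 99.7 to 100% of the reads given to Ly6c1 or Ly6c2 in each of the 11 libraries with reads of either gene, and LSK control 2 had none of both. In GMP, Ly6c2 was at 1652, 1293 and 2267 CPM in controls and at 2280, 2128 and 2155 CPM after the agonist. The highest control lay within the treated range, and the log2 difference of 0.39 ± 0.21 did not pass (edgeR adjusted p = 0.656). In LSK-labelled libraries Ly6c2 was at 50.5, 0 and 156 CPM in controls and at 191, 39.5 and 408 CPM in treated libraries. The groups overlapped, with a log2 difference of 1.71 ± 1.58 (edgeR adjusted p = 0.731).

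The scatter of Ly6c2 among LSK-labelled libraries went with that of GMP markers at its ends but not in between. A list of 10 GMP marker genes summed to 4260, 497 and 4163 CPM in LSK-labelled controls 1, 2 and 3 and to 3666, 1358 and 11108 CPM in treated libraries 1, 2 and 3. Control 2 was the lowest in both measures and treated library 3 the highest in both. Controls 1 and 3 had similar marker sums but 50.5 and 156 CPM of Ly6c2. Treated library 1 had a lower marker sum than either, with 191 CPM of Ly6c2. The part of the GMP markers in the Ly6c2 values was not tested. All 10 GMP markers had counts in every LSK-labelled library, at levels 3.53 to 78.8 times below the lowest GMP library of 39201 CPM.

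Ly6c1 was scarce. LSK-labelled controls held 1, 0 and 2 counts and treated libraries 3, 0 and 26, too few for the filter on low counts. The ratio of summed counts, scaled by library totals, was 10.1, with a 95% exact interval for counting error of 3.13 to 51.8, and 26 of the 29 treated counts came from library 3. In GMP the controls held 51, 11 and 67 counts and the treated libraries 191, 105 and 110. Each treated library was higher than each control, and the log2 difference of 1.70 ± 0.79 did not pass (edgeR adjusted p = 0.560). The same GMP libraries held 41394 to 83494 counts of Ly6c2. Whether reads of Ly6c2 or Ly6a were among the few Ly6c1 counts was not tested.

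Counted together, 0 of the 4 Ly6 genes tested in LSK-labelled cells and 1 of the 5 tested in GMP passed the edgeR test, where 0.338% of 13922 and 0.426% of 15027 genes passed. Ly6c1 was not tested in LSK-labelled cells, and Ly6i there and Ly6a in GMP passed the filter through their treated libraries alone. Treated libraries lay above all controls for 3 of the 5 genes in LSK-labelled cells and 4 of the 5 in GMP, against 7.13% and 6.29% of all genes tested. With DESeq2, Ly6a, Ly6e and Ly6i were called in each cell type. These were 3 of the 4 genes with an adjusted p in LSK-labelled cells, where 5.05% of all genes were called, and 3 of 5 in GMP, where 2.69% were. In LSK-labelled cells the joint fit of all 12 libraries called 2 of 5, against 0.635% of all genes. There limma-voom called 1 of 4, against 0.395%, and edgeR without a filter on low counts called 2 of 5, against 1.87%. Those 2 were Ly6e and Ly6c2, and the control and treated libraries overlapped for Ly6c2. In GMP limma-voom called 0 of 5, against 0.393%. The authors' deposited table gives an adjusted p of 5.45e-10, 6.66e-05 and 0.000156 for Ly6a, Ly6e and Ly6i in LSK-labelled cells. In GMP the authors' deposited table gives 0.00119, 0.0351 and 0.0150 for the same genes. For Ly6c2 the authors' deposited table gives 0.758 and 0.530. The authors' values rest on the same counts and nearly equal those of DESeq2. Both call 777 genes in LSK-labelled cells and 456 in GMP, so the authors' values are no separate support.

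**Figure D2:**
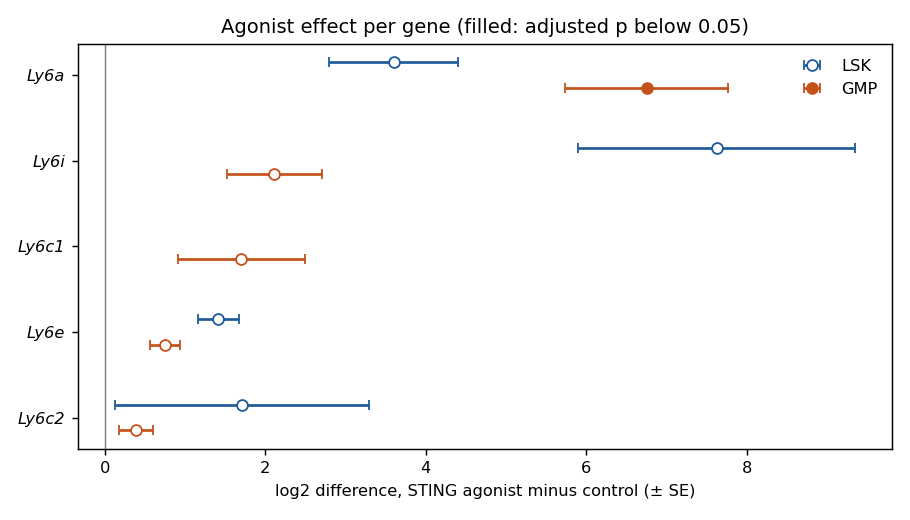
Log2 difference between STING agonist and control, with its standard error from the edgeR fit, for each gene in LSK-labelled cells and GMP. Filled points mark an adjusted p below 0.05, which Ly6a in GMP reached with 6.75 ± 1.02, and Ly6c1 has no LSK point because it was below the count filter.

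Whether the agonist acted differently on the cell types was tested by an interaction term over all 12 libraries. None of the 5 Ly6 genes passed, and 0 of 16857 genes passed (0%), although 1043 genes had a larger and 664 a smaller log2 difference in GMP at an unadjusted p below 0.05. DESeq2 called 263 genes (1.61%). For Ly6i the log2 difference in GMP minus that in LSK-labelled cells was -5.41 ± 1.36 (edgeR adjusted p = 0.374). Ly6i was the Ly6 gene called by DESeq2 (adjusted p = 0.0221). Its value rests on 1 count over the LSK-labelled controls, so its size is uncertain. For Ly6a the difference was 3.21 ± 1.34 in the other direction (edgeR adjusted p = 0.469). Without GMP control 3 the Ly6a value was 6.65 ± 1.04 (edgeR adjusted p = 0.266). For Ly6e the difference was -0.62 ± 0.33 (edgeR adjusted p = 0.539).

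Between the cell types of control mice, 2 of the 5 genes passed, against 11.5% of all genes tested and 4.55% called higher in GMP. Ly6i was higher in GMP by 7.29 ± 1.18 on the log2 scale (edgeR adjusted p = 0.00216), and Ly6e by 1.48 ± 0.24 (edgeR adjusted p = 0.00219). The size of the Ly6i difference again rests on 1 count over the LSK-labelled controls. Ly6c2 averaged 1737 ± 492 CPM in GMP and 68.9 ± 79.7 CPM in LSK-labelled controls (SD, n = 3) without overlap, yet the difference of 4.63 ± 1.46 did not pass (edgeR adjusted p = 0.0605). Ly6c1 differed by 5.28 ± 1.69 (edgeR adjusted p = 0.0646). DESeq2 called both of these along with Ly6i and Ly6e, 4 of 5 genes against 20.7% of all genes it tested. Ly6a differed by -1.59 ± 0.98 (edgeR adjusted p = 0.344), the LSK-labelled controls and GMP control 3 lying in the same range. Without GMP control 3, Ly6a was called lower in GMP, at -5.04 (edgeR adjusted p = 0.00722).

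After the agonist, 1 of the 5 genes passed between the cell types, against 9.42% of all genes tested and 4.57% called higher in GMP. DESeq2 called 3 (Ly6c1, Ly6e and Ly6i), against 18.7% of genes. Ly6e was higher in GMP by 0.87 ± 0.24 (edgeR adjusted p = 0.0382), a call that was lost in 7 of 19 alternatives, each of them a fit without 1 library. Ly6a averaged 21.1 ± 4.36 CPM in treated GMP and 6.71 ± 2.05 CPM in treated LSK-labelled cells (SD, n = 3). Those libraries did not overlap, and the log2 difference of 1.62 ± 0.91 did not pass (edgeR adjusted p = 0.314).

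Per kilobase of annotated exon, the order of the genes differed between cell types. In GMP controls Ly6c2 led with 634 ± 180 CPM per kb (SD, n = 3), followed by Ly6e with 359 ± 74.5, and their ranges did not overlap. Ly6i at 1.61, Ly6c1 at 0.751 and Ly6a at 0.164 CPM per kb came last, and each of these overlapped its neighbour in the order. After the agonist Ly6a, at 17.5 ± 3.62 CPM per kb, took the place behind Ly6e, above Ly6i at 6.77 ± 0.21 and Ly6c1 at 2.38 ± 1.16 without overlap. In LSK-labelled controls Ly6e led with 128 ± 39.1 CPM per kb, ahead of Ly6c2 at 25.1 ± 29.1, Ly6a at 0.505 ± 0.177, Ly6c1 at 0.0180 and Ly6i at 0.00611. Only Ly6c2 with Ly6a and Ly6c1 with Ly6i overlapped among neighbours there. After the agonist Ly6e stood at 311 ± 57.4, Ly6c2 at 77.6 ± 67.6, Ly6a at 5.57 ± 1.70, Ly6i at 1.77 ± 1.17 and Ly6c1 at 0.149 ± 0.216 CPM per kb, with no overlap between neighbours.

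The genes whose log2(CPM + 0.5) most resembled each Ly6 gene over the 12 libraries were ranked among 10918 genes by Pearson's r. These values describe 12 libraries in 4 groups that share depth and preparation, so no p is given. Closest to Ly6a were Dhx58, an RNA sensor homologue (r = 0.957), Oas1g (0.940), Oas1a (0.937), Ifi206 (0.920) and Shisa5 (0.914). The Oas1 genes belong to the oligoadenylate synthetases, which sense double-stranded RNA. Closest to Ly6c2 were Hp, which encodes haptoglobin (r = 0.994), Elane, which encodes neutrophil elastase (0.986), Ms4a3, a marker of granulocyte-monocyte progenitors (0.985), Clec12a (0.976) and Sorl1 (0.972). Closest to Ly6e were Klf2, a transcription factor (r = 0.973), Cybb, the catalytic subunit of the phagocyte oxidase (0.959), Slfn2 (0.958), Rgcc (0.952) and Rhob (0.937). Ly6i lay closest to Ly6e (r = 0.915) and Ly6c1 to Mrgpra2a (r = 0.970). Ly6a and Ly6c2 resembled each other least among the pairs of Ly6 genes (r = 0.300).

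**Figure D3:**
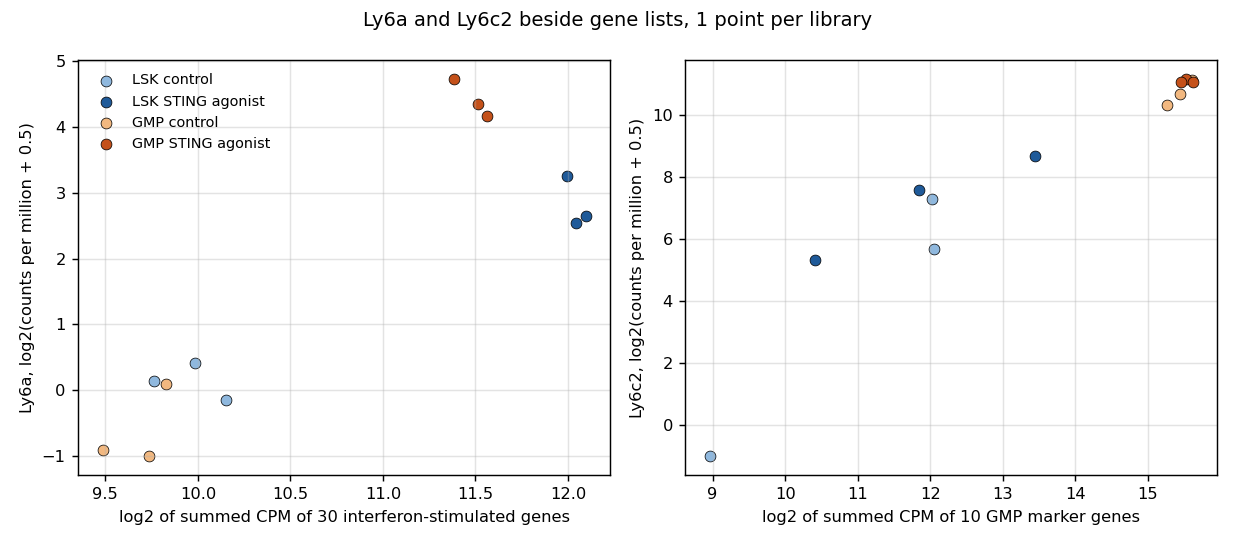
Left, Ly6a as log2(CPM + 0.5) against the log2 of the summed CPM of 30 interferon-stimulated genes; right, Ly6c2 on the same scale against 10 GMP marker genes, with 1 point per library. The summed interferon genes ran from 716 to 1136 CPM in controls and from 2675 to 4386 CPM after the agonist, and LSK control 2 has the lowest Ly6c2 and GMP marker values.

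A list of interferon-stimulated genes was set beside Ly6a, and the part of an interferon response in the Ly6a rise was not tested. Of 30 listed genes, all tested, 11 rose in LSK-labelled cells and 13 in GMP by the edgeR test, and none fell in either, against 0.338% and 0.426% of all genes called. Their median log2 difference was 2.47 in LSK-labelled cells and 2.41 in GMP, against 0.02 and -0.04 over all genes. The summed list reached 4083 to 4386 CPM in treated LSK-labelled libraries and 2675 to 3025 CPM in treated GMP. Ly6a had the opposite order, with means of 6.71 CPM in treated LSK-labelled libraries and 21.1 CPM in treated GMP. Dhx58, which is on this list, went from 10.4 to 47.6 CPM in GMP, a log2 difference of 2.25 ± 0.27. It was picked as the gene most like Ly6a over these same libraries. Its rise was therefore part of the choice and is no separate support.

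Of 45 listed relatives, 24 are in the LSK table with 8 tested and 26 are in the GMP table with 9 tested, and 0 passed edgeR in either. With 0.338% and 0.426% of all genes called, 0 of so few is no result about these relatives. Plaur, the urokinase receptor, was at 96.8 ± 8.22 CPM in GMP controls and 153 ± 30.2 CPM in treated GMP (SD, n = 3), a log2 difference of 0.73 ± 0.20 (edgeR adjusted p = 0.236). Cd59a, a complement inhibitor, was at 55.7 and 56.5 CPM in control and treated LSK-labelled cells. Bambi, a decoy receptor of the TGF-beta family, was at 48.5 and 59.2 CPM in control and treated GMP. Cd177, a neutrophil surface gene, was at 3.91 CPM in GMP controls and 0.722 CPM after the agonist, and the log2 difference of -2.38 ± 1.19 did not pass (edgeR adjusted p = 0.593). Ly6g, the neutrophil antigen Ly6G, had 107 counts in GMP control 3 and 33 in LSK STING agonist 3 and none in the other 10 libraries. The 28 genes that build and attach the GPI anchor, of which 25 and 26 were tested, gave 0 calls against the same shares of all genes. This too is no result about them. Their median log2 differences were -0.04 in LSK-labelled cells and 0.04 in GMP. They summed to 1071 to 1092 CPM in LSK-labelled controls and 851 to 1047 CPM after the agonist, without overlap. In GMP the sums were 909 to 956 and 897 to 1053 CPM.

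**Figure D4:**
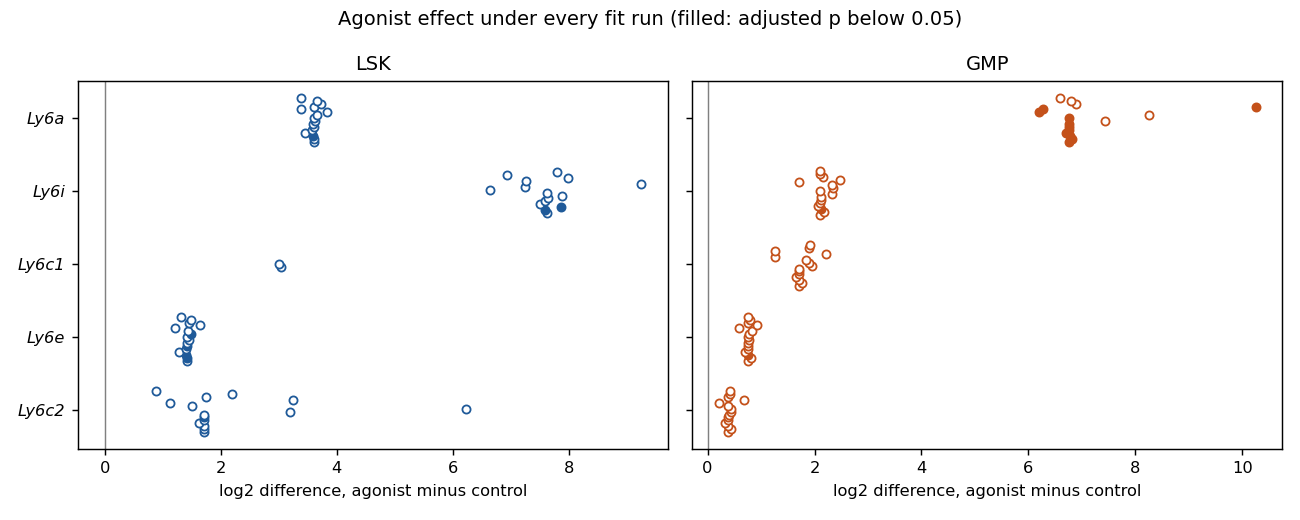
Log2 difference between STING agonist and control for each gene under the main fit and each alternative fit that tested that gene on its own, in LSK-labelled cells (left) and GMP (right). Filled points have an adjusted p below 0.05; all points lie above 0, and the Ly6a value of 10.25 in GMP is the fit without control 3.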

How the data were processed

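For each cell type the authors deposited a table of raw read counts per Ensembl gene, together with their own log2 fold change, p-value and adjusted p, per the file headers. Which aligner, counter, strand setting or test made them is not given in the sources used here. For the Ly6 genes the deposited fold changes and p-values nearly equal those of the DESeq2 run described below. Per the submitters' processing notes the build was mm9, but gene positions in the tables were the same as in GRCm38 (GENCODE M21) for 95.1% of the 35688 identifiers matched, and are given as GRCm38. A single empty line per table was dropped.

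Groups came from the library titles and treatment labels. Counts were tested on the whole table with edgeR 4.0.16 in R 4.3.3 (quasi-likelihood test, TMM factors, filterByExpr, Benjamini-Hochberg adjustment, threshold 0.05). LSK and GMP were fitted separately for the agonist effect, and all 12 libraries jointly for comparisons of the cell types. The step was tested on simulated data with less spread than these libraries have and changes planted only in genes with ample counts. That test therefore does not show how the step performs on the scarce Ly6 genes. Levels are counts divided by the library total and multiplied by 1e6. Levels per kilobase use the union of annotated exons. Exact binomial intervals are at 95% and cover counting error only, since the reads carry no molecular identifiers. Coding sequences are those of the lowest-numbered transcript of each gene in GENCODE M21.

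DESeq2 1.42.0, limma-voom (limma 3.58.1), other scalings and filters, a replicate block, Ly6c1 and Ly6c2 summed, and fits without each library were alternatives. The numbers of the replicates were judged not to pair the libraries. The genes, gene lists, tests and naming rules were chosen with earlier results of these data known. By that rule the text names all 5 Ly6 genes, relatives with a mean of at least 1 CPM in a group, called list genes, and the 5 genes most like each Ly6 gene. Some of the genes this rule takes are left out for length. Kit, Mpo and Elane are named as sort or lineage markers chosen after their values were seen.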

Additional observations from a re-analysis of the deposited data

How the results depend on the processing

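The number of the 5 Ly6 genes called depended on the tool more than on scaling. For the agonist effect in LSK-labelled cells, 0 genes were called by the main edgeR fit, 2 by the joint fit of all 12 libraries (Ly6e, Ly6i), 3 by DESeq2, 2 without a filter on low counts (Ly6e, Ly6c2), 1 by limma-voom (Ly6e) and 0 without any 1 library. Over all genes these fits called 0.338%, 0.635%, 5.05%, 1.87% and 0.395% in that order, the fits without 1 library left aside. For Ly6c2 the fit without a filter gave an SE of 0.274 (edgeR adjusted p = 1.68e-07), against 1.58 in the main fit. The log2 difference was 1.71 in both fits and the libraries of the groups overlapped, so that call does not reflect their scatter. In GMP, 1 was called by the main fit, 3 by DESeq2, 0 by limma-voom and 0 to 1 without 1 library, the call of Ly6a being lost without any of the 3 treated libraries. DESeq2 called 1 gene for the difference between cell types, 4 between control groups and 3 between treated groups, where the main fit called 0, 2 and 1. Without 1 library, 2 to 4 genes were called between control groups, with 4 without LSK STING agonist 2, and 0 to 2 between treated groups. Between treated groups 0 were called without LSK control 1, LSK STING agonist 1 or 2, GMP control 1, or any treated GMP library, and 2 without LSK control 2 or LSK STING agonist 3. The cause of these shifts was not tested.

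With the replicate number as a block, paired by number, the calls were 0 in LSK, 0 in GMP (Ly6a adjusted p = 0.0508), 0 for the difference between cell types, 4 between control groups and 1 between treated groups. Over all genes, the replicate block called 10 genes in LSK and 20 in GMP, the main fit 47 and 64, and DESeq2 777 and 456. Deviations of same-numbered libraries correlated by -0.02 to 0.10, and 3 of 6 libraries in each cell type correlated best with their own number. With so few libraries this cannot exclude pairing. The main fit did not take the numbers as pairs, and the calls with the block are given beside it.

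Direction held in every alternative that tested a gene, except the Ly6c1 difference between cell types, which was -1.28 in the main fit and ranged from -2.29 to 1.08 without 1 library, the positive value being that without LSK STING agonist 3. None of these values was called. Scaling by library size alone moved the median of all genes to -0.12 in LSK and -0.11 in GMP on the log2 scale and changed no call of a Ly6 gene. The share of Ly6c2 did not change with a minimum of 100 counts, and the order of levels per kilobase was the same with the length of the lowest-numbered transcript, a choice made after seeing the data. A count of 3, the floor used for a level of 0, is 0.0635 to 0.0979 CPM, which limits what can be said of Ly6a in GMP controls and of Ly6i and Ly6c1 in LSK-labelled controls.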

Other observations

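The Ly6 cluster on chromosome 15, from Ly6d to Ly6h (GRCm38, 74762056 to 75567255), holds 42 annotated genes, 18 of them protein coding. Besides the 5 genes described, 5 were tested in LSK-labelled cells and 4 in GMP, and edgeR called 0 of either. With 0.338% and 0.426% of all genes called, 0 of so few is no result about these neighbours. Of the neighbours tested, 4 of 5 had a log2 difference above 0 in LSK-labelled cells and 2 of 4 in GMP. Over all genes tested the shares above 0 were 51.2% and 46.3%.

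Gm5960, an unprocessed pseudogene between Ly6c1 and Ly6c2, averaged 50.9 CPM in GMP controls and 92.9 CPM in treated GMP, a log2 difference of 0.92 ± 0.32 (edgeR adjusted p = 0.414). I830127L07Rik, a transcribed pseudogene beyond Ly6c2, averaged 39.6 and 30.2 CPM, a log2 difference of -0.33 ± 0.27 (edgeR adjusted p = 0.792). Both were chosen for mention after their values were seen.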
